A study of Mus musculus with 3 samples.

Results

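The 10 genes described here are Pecam1, Cdh5, Vwf, Cytl1, Tek, Tie1, Esam, Egfl7, Ptprb and Cldn5, which are used as markers of vascular endothelium and of its cell-to-cell junctions. They were taken by symbol, and all 10 were found among the 32285 genes of each count table. Their levels were read in endothelial cells of 3 libraries of mouse arterial cells, prepared with a droplet method that reads the 3' ends of transcripts and counts each captured molecule once by its unique molecular identifier (UMI). Genotype was given as WT and the time as 3 weeks for all libraries. The groups were vehicle, sunitinib (labelled TKI), and sunitinib with Yoda1, each with 1 library. Sunitinib inhibits receptor tyrosine kinases, among them VEGF and PDGF receptors, and Yoda1 opens the mechanosensitive cation channel PIEZO1. The title of the third library names Yoda1 alone, and it was assigned to the combined group, the one group of the design in which Yoda1 occurs. Strain, sex, age, dose, the number of mice behind a library and any sort are not stated in the labels.

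A cell was taken as endothelial when it had at least 500 UMIs, at least 300 detected genes, at most 15% mitochondrial UMIs, at least 3 of the 10 genes detected, and under 1% of its UMIs in the contractile genes Acta2, Tagln, Myh11 and Cnn1. This gave 150 of 3947 vehicle cells (3.80%, exact 95% interval 3.23% to 4.44%), and 192 of 4148 with sunitinib (4.63%, 4.01% to 5.31%). With both compounds it gave 400 of 3130 (12.8%, 11.6% to 14.0%), or 742 of 11225 cells in all. In the library with both compounds, 339 endothelial cells had a UMI of Cd36, a fatty acid transporter, or of Gpihbp1, which carries lipoprotein lipase across capillary endothelium, and 61 had neither. These are called Cd36/Gpihbp1-positive and Cd36/Gpihbp1-negative below. In the vehicle library 2 endothelial cells were positive, and in the sunitinib library 0 of 192 were, which allows a share of up to 1.56% (3 counts of the total) for cells with a UMI, not for cells that express these genes. Because detection of the 10 genes chose the cells, their presence in these cells is no result, and their levels are given as descriptions.

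At the threshold, 5, 10 and 25 cells (vehicle, sunitinib, both compounds) had exactly 3 of the 10 genes and were taken, and 7, 10 and 73 had exactly 2 and were not. A UMI of the leukocyte gene Ptprc was present in 5 of those 25 cells and in 47 of those 73, and in 0 of the cells at the threshold in the other libraries. A further 51, 56 and 1 cells had at least 3 of the genes but at least 1% contractile UMIs. As a check on the label, at least 3 of 12 other endothelial genes that were no part of the rule (among them Emcn, Eng, Ecscr and Mmrn2) were detected in 94% of the vehicle cells, 85.9% of the sunitinib cells and 92.5% of the cells with both compounds. Within the library with both compounds the share was 95.6% in positive cells and 75.4% (46 of 61) in negative cells, so the label is weaker in the latter. Of 12 lists of markers of other kinds of cell, the lymphatic list had 2 and 3 of 7 markers detected in vehicle and sunitinib cells. They summed to 15.1 and 24.0 CPM, Flt4 was highest, and Pdpn, Ccl21a, Mmrn1 and Reln were at 0. B cell, mesothelial and adipocyte markers were at or near 0 there. Venous markers summed to 1190 and 941 CPM, with Vcam1, also on the large-vessel list, highest. At least 2 of them were found in 86 of 150 and 116 of 192 cells. Smooth muscle markers were not at 0: 10 of 10 were detected, with summed levels of 943 and 2035 CPM in vehicle and sunitinib cells, and 9 of 10 were detected with both compounds, at 365 CPM (Actg2 was at 0). Fibroblast markers summed to 420, 374 and 435 CPM in vehicle, sunitinib and both compounds. At least 2 of them were found in 63 of 150, 71 of 192 and 28 of 400 cells. With both compounds 7 of 7 lymphatic markers were detected, at 1169 CPM, and 23 cells had at least 2. CPM stands for a gene's summed UMIs divided by all UMIs of the population, scaled to 1000000.

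The libraries held 73901343, 66769480 and 28364203 UMIs. Endothelial cells had a median of 7730.5, 6626 and 4400.5 UMIs. The libraries shared 3 to 8 cell barcodes in pairs, and endothelial cells shared 0. The matrix for both compounds was made with a later version of the counting program, whose default counts intronic reads, and haemoglobin took 4.07% of the summed UMIs of its endothelial cells (19 of 400 cells had at least 1%) against 0.000986% and 0.000335% in vehicle and sunitinib cells. A group is 1 library, so no difference has a replicate check, none was tested, and the 95% intervals cover counting error alone. The comparisons against sunitinib share the same 192 sunitinib cells. Fewer molecules in a summed population can mean fewer cells that express a gene or fewer molecules per cell, so the share of cells with a UMI is given beside the levels that differ.

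Endothelial cells line every vessel and are held together by adherens and tight junctions. VE-cadherin, encoded by Cdh5, forms the adherens junction, claudin-5 (Cldn5) seals the tight junction, and PECAM-1 (Pecam1) and ESAM (Esam) are adhesion molecules at the same contacts. Tie2 (Tek) is the angiopoietin receptor that keeps the resting endothelium stable, Tie1 is its partner receptor, and the phosphatase VE-PTP (Ptprb) dephosphorylates Tie2 and associates with VE-cadherin. Von Willebrand factor (Vwf) is stored in Weibel-Palade bodies and binds platelets, Egfl7 encodes a secreted matrix protein of endothelial cells and hosts the microRNA gene Mir126a, and Cytl1 encodes a small secreted protein. Large vessels are known for high von Willebrand factor, and capillaries for fatty acid handling genes such as Cd36 and Gpihbp1.

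All 10 are annotated as protein-coding (mouse build GRCm38, GENCODE vM21). Cytl1 is a short gene of 4 exonic blocks on chromosome 5 (37735519 to 37739820, plus strand), and Cldn5 is a single exon on chromosome 16 (18776847 to 18778262, plus strand). These genes had the lowest and the highest ratio of the 10 when both compounds were compared with sunitinib, so their 250 bases before the start are shown. The RefSeq table used here (GRCm38.p6) held promoter windows of 5 of the 10 genes. Capitals mark 1 string of 6 bases that holds the motif of ETS transcription factors, a family that includes the endothelial regulators Erg and Fli1. It was searched as AGGAAG on both strands (CTTCCT on the other). Shorter or other forms of the ETS motif were not searched and are not marked.
Cytl1, chr5:37735269-37735518, plus strand: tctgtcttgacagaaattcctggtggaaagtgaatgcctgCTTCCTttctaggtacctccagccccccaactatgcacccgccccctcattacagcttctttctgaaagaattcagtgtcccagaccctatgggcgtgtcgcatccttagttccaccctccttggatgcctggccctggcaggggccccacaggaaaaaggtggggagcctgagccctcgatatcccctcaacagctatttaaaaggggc
Cldn5, chr16:18776597-18776846, plus strand: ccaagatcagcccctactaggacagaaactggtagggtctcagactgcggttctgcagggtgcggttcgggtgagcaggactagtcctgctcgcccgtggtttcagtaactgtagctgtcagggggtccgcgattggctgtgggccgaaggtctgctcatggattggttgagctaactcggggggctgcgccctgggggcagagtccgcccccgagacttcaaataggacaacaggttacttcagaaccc
The Cytl1 window held 1 match, which begins 210 bases before the start, and the Cldn5 window held 0. Over all 32841 windows of 250 bases in the table, 29.5% held at least 1 match. The windows of Tie1 (1 match) and of 2 of the 3 starts of Egfl7 (3 and 1 matches) held this string as well, and that of Tek did not. The GC box GGGCGG, which is found in 32.7% of windows, was present once in both windows shown. The Cldn5 window held 12 CpG dinucleotides and the Cytl1 window 4, against a median of 6 over all windows. A match describes these letters only and says nothing of binding.

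Under sunitinib alone the 10 genes stood close to their vehicle levels. None was at least 1.5-fold higher or lower, the size used throughout to call a difference. Of all 9020 genes with at least 20 UMIs in the 2 sums, 13.0% were called higher and 5.58% lower. The 2 are not like for like. Genes near 20 UMIs can pass 1.5-fold by counting error, and the 10 genes had 303 UMIs or more in each sum (fewest for Tie1). Among the junction genes, Pecam1 was at 3549 CPM (3455 to 3645) in vehicle and 3628 CPM (3541 to 3718) in sunitinib cells, a log2 ratio of 0.032 (-0.020 to 0.084). Esam was at 356 CPM (327 to 388) and 326 CPM (299.96 to 353), a log2 ratio of -0.13 (-0.30 to 0.043). Both intervals include 0. Cdh5 was at 592 CPM (554 to 632) in vehicle and 546 CPM (512 to 581) in sunitinib, a log2 ratio of -0.12 (-0.25 to 0.014). Cldn5 was at 408 CPM (377 to 442) and 349 CPM (322 to 377), a log2 ratio of -0.23 (-0.39 to -0.065). The claudin was thus the lower-lying of the junction genes under sunitinib, by less than the size of a call.

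The angiopoietin receptor and its partners spread to both sides. Tek was at 406 CPM (374 to 439) in vehicle and 407 CPM (378 to 437) in sunitinib cells, a log2 ratio of 0.0043 (-0.15 to 0.16). Tie1 was at 216 CPM (194 to 241) and 169 CPM (151 to 189), the lowest ratio of the 10, -0.36 (-0.59 to -0.13). Ptprb was at 2274 CPM (2198 to 2351) and 2829 CPM (2752 to 2908), the highest ratio, 0.32 (0.25 to 0.38). So the receptor Tie2 was level in RNA while the phosphatase that acts on it was higher and Tie1 lower, both by less than 1.5-fold and with intervals that exclude 0. Among the secreted proteins, Vwf was at 909.7 CPM (862 to 959) and 994 CPM (948 to 1041), with a log2 ratio of 0.13 (0.025 to 0.23). Egfl7 was at 885 CPM (839 to 934) and 773 CPM (733 to 815), with a log2 ratio of -0.20 (-0.30 to -0.086). Cytl1 was at 6504 CPM (6377 to 6634) and 6515 CPM (6398 to 6635), with a log2 ratio of 0.0024 (-0.036 to 0.041), and it was detected in 149 of 150 and 191 of 192 cells.

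The median log2 ratio of the 10 genes was -0.058, against 0.12 over all genes measured, and 5 of the 10 lay above 0. With TMM or median-of-ratios scaling the medians of all genes moved by -0.10 and -0.11, and 2 of the 10 genes (Vwf and Ptprb) lay above 0. The calls over all genes were then 9.49% higher and 7.95% lower with TMM, and 9.36% and 8.03% with median-of-ratios factors. Contractile genes took 0.0778% of the UMIs in vehicle and 0.179% in sunitinib endothelial cells, and their part in these ratios was not tested. With no limit on contractile genes the median was 0.054.

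**Figure D1:**
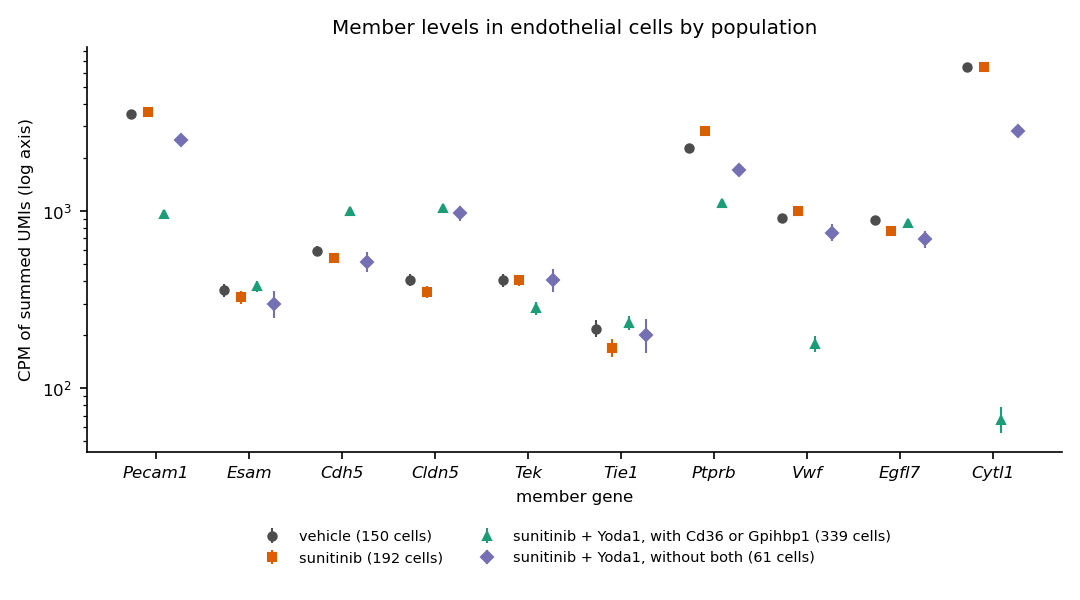
CPM of summed UMIs (vertical, log axis) of the 10 genes in vehicle, sunitinib and Cd36/Gpihbp1-positive and -negative endothelial cells of the library with both compounds; points are the CPM of each population and bars exact 95% Poisson intervals for counting error. Vehicle and sunitinib points lie close together for each gene, and the positive cells stand far below the rest for Cytl1 (66.1 CPM) and Vwf (179 CPM).

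In the library with both compounds the 10 genes stood on both sides of their sunitinib levels. Compound, library and kind of endothelial cell cannot be told apart in this comparison. Of the 400 cells 339 were Cd36/Gpihbp1-positive, against 0 of 192 with sunitinib. The library also held 81 contractile cells, against 3904 in the sunitinib library. When all 400 endothelial cells were compared with the 192 sunitinib cells, 4 genes were called lower (Cytl1, Vwf, Pecam1 and Ptprb), 2 were called higher (Cldn5 and Cdh5), and 4 stayed within 1.5-fold (Tek, Tie1, Esam and Egfl7). Over all 10631 genes measured, 37.6% were called higher and 19.5% lower, so that calls in this comparison are frequent for any gene. With median-of-ratios factors the shares were 31.9% and 26.2%. Of the junction genes, Cldn5 was at 1023 CPM (984 to 1063) against 349 CPM with sunitinib, a log2 ratio of 1.55 (1.43 to 1.68). Cdh5 was at 923 CPM (885 to 961) against 546 CPM, a log2 ratio of 0.76 (0.65 to 0.87). Pecam1 went the other way, at 1229.7 CPM (1187 to 1274) against 3628 CPM (log2 ratio -1.56, interval -1.62 to -1.50), although it had a UMI in 92.5% of cells. Esam was at 363 CPM (339.97 to 387) against 326 CPM (log2 ratio 0.16, interval 0.0049 to 0.31). Adhesion and junction genes of the same cell contacts thus differed in direction.

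Of the angiopoietin receptor complex, Ptprb was at 1211 CPM (1168 to 1254) against 2829 CPM (log2 ratio -1.22, interval -1.29 to -1.16). Tek was at 304 CPM (283 to 326) against 407 CPM (log2 ratio -0.42, interval -0.57 to -0.27), and Tie1 at 228 CPM (209 to 247) against 169 CPM (log2 ratio 0.43, interval 0.23 to 0.63). The phosphatase, lower than its sunitinib level by 2.34 times, was the only gene of the 3 that was called. Among the secreted proteins, Cytl1 was at 536 CPM (508 to 565) against 6515 CPM (log2 ratio -3.60, interval -3.69 to -3.52), and it had a UMI in 52 of 400 cells against 191 of 192. Vwf was at 277 CPM (257 to 298) against 994 CPM (log2 ratio -1.84, interval -1.97 to -1.72), with a UMI in 21.5% (17.6% to 25.9%) of cells against 88.5% (83.2% to 92.7%). For both genes fewer cells carried a transcript, at a lower median depth per cell. Egfl7 was at 826 CPM (791 to 863) against 773 CPM (log2 ratio 0.096, interval -0.0030 to 0.19).

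The median of the 10 log2 ratios was -0.16, against 0.23 over all genes, and 5 of 10 lay above 0. Ratios in this comparison moved with intron length. The median over all genes was -0.35 in the quintile of genes with the least intron sequence (up to 5275 bases) and 1.29 in the quintile with the most (at least 70809 bases). Cldn5, which has no intron, and Cytl1, with 3246 intronic bases, fall in the first of these. Pecam1, Vwf, Ptprb and Tek, with 90184 to 130976 intronic bases, fall in the last, and each was below its sunitinib level. The part of intronic counting in the ratios was not tested. The call of Cdh5 (38684 intronic bases, in a quintile with a median of 0.51) was lost with median-of-ratios scaling (0.56) and when 2 detected genes sufficed (0.52), and with no limit on contractile genes it stood at 1.35. Under these scalings 3 of the 10 genes lay above 0. Tek was called lower in 3 of 16 alternatives: median-of-ratios scaling (-0.62), 2 detected genes and cells chosen by other endothelial genes (-0.59 in both). Tie1 was called higher in a mean over cells (0.61). With no limit on contractile genes Tek stood at 0.18, and Tie1 (1.03), Egfl7 (0.68) and Esam (0.65) were called higher.

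**Figure D2:**
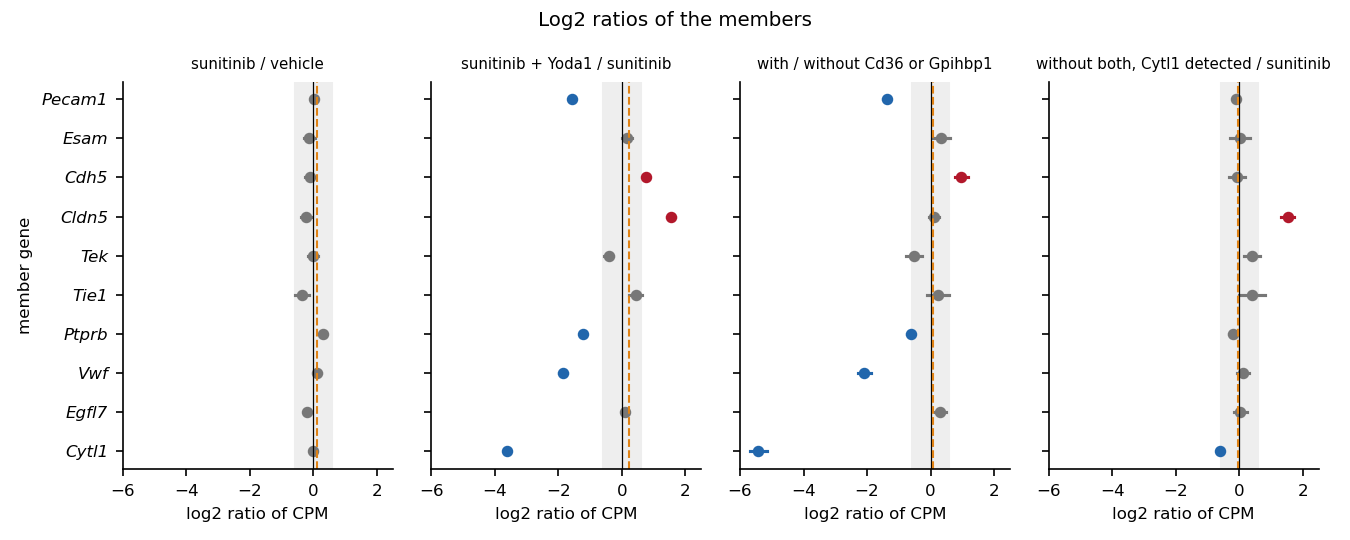
Log2 ratios of CPM (horizontal) of the 10 genes in 4 comparisons of endothelial populations, with exact conditional 95% intervals for counting error; red and blue mark ratios of at least 1.5-fold up or down, the grey band is within 1.5-fold and the dashed line is the median of all genes measured. All 10 points lie in the band for sunitinib over vehicle, Cytl1 lies farthest to the left where both compounds or Cd36/Gpihbp1-positive cells are compared, and Cldn5 alone is red in the comparison of Cytl1-positive cells with sunitinib.

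The split of the 400 cells by Cd36 and Gpihbp1 separated the genes within a single library, where preparation and counting program are shared. Positive cells had less of 4 genes: Cytl1, Vwf, Pecam1 and Ptprb were called lower than in negative cells, while Cdh5 alone was called higher. Over all 9629 genes measured, 23.6% were called higher in positive cells and 17.0% lower. Cytl1 was at 66.1 CPM (55.5 to 78.1) in positive and 2826 CPM (2669 to 2989) in negative cells, a log2 ratio of -5.42 (-5.68 to -5.16). It had a UMI in 4.72% (2.72% to 7.55%) of positive and 59.02% (45.7% to 71.4%) of negative cells. The positive share was above that in cells with B cell or T cell markers (0.186% and 0.423%), at median depths of 4257 UMIs in positive cells and 4758 and 7595.5 in those lymphocytes. Cells with at least 3 of the 10 genes were left out of those lymphocytes, while positive cells had to have at least 3. The direction of this difference is therefore partly set by the choice of cells. Vwf was at 179 CPM (161 to 198) and 756 CPM (676 to 843), with a log2 ratio of -2.08 (-2.30 to -1.86), and had a UMI in 13.9% (10.4% to 18.01%) and 63.9% (50.6% to 75.8%) of cells. With each cell brought to 2000 UMIs, which kept 281 of 339 and 49 of 61 cells, the expected shares for Vwf were 9.75% and 52.98%. For these secreted proteins the positive population was one in which few cells carried a transcript.

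Pecam1 differed in another way. It was at 967 CPM (925 to 1009.9) in positive and 2511 CPM (2363 to 2665) in negative cells (log2 ratio -1.38, interval -1.48 to -1.27), yet 92.3% and 93.4% of the cells had a UMI, so the levels differed at a like share of cells. Among cells of at least 2000 UMIs, the quartiles of positive cells were 509 and 1249.8 CPM, and those of sunitinib cells 2793 and 4604 CPM. Ptprb was at 1108 CPM (1063 to 1154) and 1713 CPM (1591 to 1841), with a log2 ratio of -0.63 (-0.75 to -0.51). That call was close to the limit, since it was lost under TMM scaling (-0.58), on thinning each cell to 2000 UMIs (-0.34), in a mean over cells (-0.40), with no limit on contractile genes (-0.58), without haemoglobin UMIs (-0.56) and in a split by Fabp4 or Rgcc (-0.17), and it stood in 11 of 19 alternatives. It turned to 0.43 when cells with 2 detected genes were added, and to 0.29 when cells were chosen by the 12 other endothelial genes. In these 2 settings Pecam1 was no longer called either (-0.45 and -0.49), and Tie1, Esam, Egfl7 and Cldn5 were called higher. The added cells with 2 detected genes were those of which 47 of 73 had a Ptprc UMI.

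Cdh5 was higher in positive cells, at 1006 CPM (963 to 1050.01) against 516 CPM (449.9 to 588), with a log2 ratio of 0.96 (0.76 to 1.17), and its ratio was between 0.73 and 1.98 in the 19 alternatives tried. Cldn5 was at 1034 CPM (991 to 1079) and 968 CPM (877 to 1066), with a log2 ratio of 0.095 (-0.057 to 0.25), so that both populations stood above the vehicle and sunitinib levels and did not differ from each other beyond counting error. The remaining genes were within 1.5-fold. Esam was at 376 and 299 CPM (log2 ratio 0.33, interval 0.062 to 0.61) and Egfl7 at 854 and 691 CPM (0.31, interval 0.13 to 0.49). Tie1 was at 234 and 198 CPM (0.24, interval -0.098 to 0.59) and Tek at 283 and 408 CPM (-0.53, interval -0.78 to -0.28). Tek was called lower in 4 of 19 alternatives (-0.63 to -0.94), and stood at 0.34 with cells chosen by other endothelial genes and at 0.22 with 2 detected genes. Esam (0.86) and Egfl7 (0.72) were also called higher in the split by Fabp4 or Rgcc. The median over the 10 genes was -0.22, against 0.076 for all genes, with 5 of 10 above 0. The split moved with depth, haemoglobin and fibroblast transcripts: median UMIs were 4257 and 7036, haemoglobin took 4.87% and 0.159% of UMIs, and the 9 fibroblast markers summed to 57.9 and 2275 CPM in positive and negative cells. These sums were uneven over cells: 19 of the 400 cells had at least 1% haemoglobin UMIs, and 12 of 339 positive and 16 of 61 negative cells had at least 2 fibroblast markers. In cells of at least 3000 UMIs on both sides the median was -0.25, and without haemoglobin UMIs it was -0.15. The part of the fibroblast transcripts was not tested.

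The negative cells of the library with both compounds were within 1.5-fold of sunitinib cells in 7 of the 10 genes. Compared with sunitinib cells, Cldn5 was called higher (log2 ratio 1.47, interval 1.29 to 1.65), and Cytl1 (-1.21, interval -1.29 to -1.12) and Ptprb (-0.72, interval -0.84 to -0.61) were called lower, where 28.2% of 8559 genes were called higher and 20.7% lower. The 61 cells were of several kinds. Cytl1 was detected in 36 of them, 6 had at least 2 lymphatic markers (2 of which had Cytl1 as well), 6 had at least 2 platelet markers, and 15 had none of these and a median of 2445 UMIs. In the 6 cells with platelet markers Cytl1 had 0 UMIs, Tek was at 81.4 CPM and Ptprb at 183 CPM. The 15 remaining cells had 0 UMIs of Cytl1, 688 CPM of Pecam1 and 639 CPM of Cldn5, and their fibroblast markers summed to 9860 CPM, with at least 2 markers in 3 of the 15 cells. In the 36 cells with Cytl1 that sum was 391 CPM. At least 3 of the 12 other endothelial genes were detected in 32 of those 36 cells and in 6 of 6 with lymphatic markers. They were detected in 4 of the 6 cells with platelet markers and in 6 of the 15 remaining cells. Positive cells were mixed as well, since 17 of 339 had at least 2 lymphatic markers and 11 at least 2 platelet markers.

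The 36 Cytl1-positive cells were set apart after the values had been seen. In them 8 of 10 genes lay within 1.5-fold of sunitinib, where 25.3% of 8173 genes were called higher and 25.1% lower. Cytl1, which chose these cells, had a rho of 0.70 with Vwf and 0.50 with Pecam1 over the endothelial cells of this library. The choice can thus itself bring such genes near their sunitinib levels, and the 8 of 10 is a description of the chosen cells. Pecam1 was at 3405 CPM (3194 to 3627), Vwf at 1081 CPM (964 to 1209), Ptprb at 2458 CPM (2279 to 2647) and Cdh5 at 521 CPM (441 to 612), with log2 ratios over sunitinib of -0.092, 0.12, -0.20 and -0.066. Tek (0.41), Tie1 (0.41), Esam (0.038) and Egfl7 (0.035) were within the same limits. Cytl1 itself, which chose the cells, was at 4265 CPM (4028 to 4512), with a log2 ratio of -0.61 (-0.70 to -0.53). Besides Cytl1, which was called lower, the gene past 1.5-fold was Cldn5. It was at 1000.1 CPM (887 to 1123) against 349 CPM, 2.87 times the sunitinib level (log2 ratio 1.52, interval 1.31 to 1.72). It had a UMI in 29 of the 36 cells, against 103 of 192 with sunitinib and 90 of 150 with vehicle. Cldn5 belongs to the genes with the least intron sequence, whose median in this comparison was -0.50.

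Levels in single cells, read in cells of at least 2000 UMIs, followed these differences. In vehicle and sunitinib cells the median cell had 6153 and 5789 CPM of Cytl1, in positive cells with both compounds the 90th percentile was at 0, and in negative cells the median was 1610.1 CPM. The median of Cdh5 was 573 and 494 CPM in vehicle and sunitinib and 1020.4 CPM in positive cells. Pairwise Spearman correlations of the 10 genes over cells of at least 2000 UMIs had medians of 0.14 (134 vehicle cells), 0.080 (160 sunitinib cells) and 0.11 (330 cells with both compounds) over 45 pairs. The points of a library share its preparation and differ in depth, so these values are descriptions. With both compounds Vwf and Cytl1 had a rho of 0.70, Pecam1 and Cytl1 0.50, and Cdh5 and Cytl1 -0.33. In vehicle cells the highest rho was 0.51, between Pecam1 and Ptprb.

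**Figure D3:**
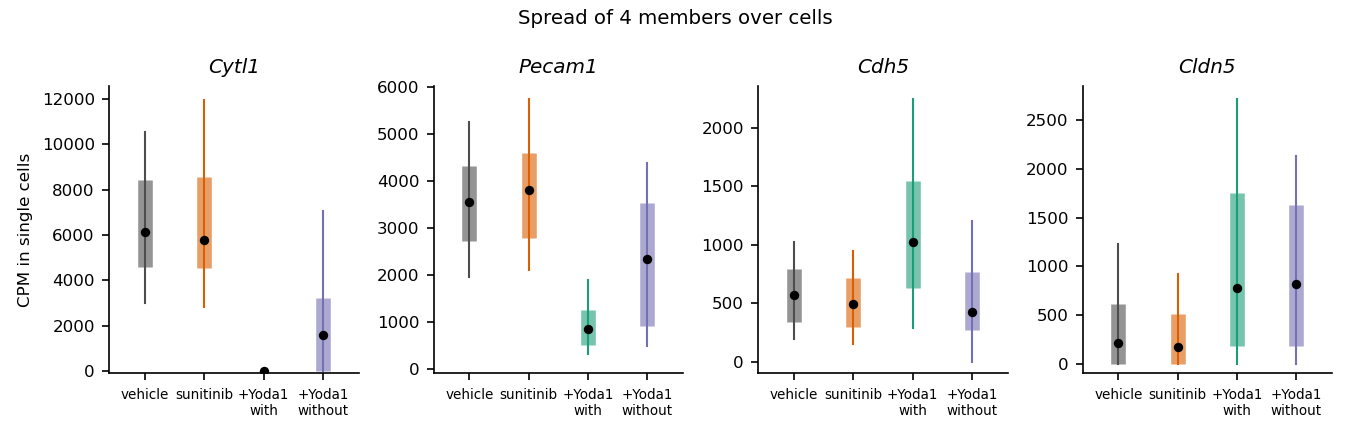
CPM in single endothelial cells of at least 2000 UMIs (vertical) of Cytl1, Pecam1, Cdh5 and Cldn5 in vehicle, sunitinib and Cd36/Gpihbp1-positive and -negative cells of the library with both compounds. Dots are medians, thick bars the quartiles and thin lines the 10th to 90th percentile. Cytl1 is at 0 in positive cells, Pecam1 is lowest there, and Cldn5 reaches down to 0 in each population.

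Cldn5 was spread unevenly over vehicle and sunitinib cells. At a level of 408 CPM in vehicle cells it had a UMI in 60% (51.7% to 67.9%) of cells, and Tek, at 406 CPM, in 79.3% (71.97% to 85.5%). If each cell had held the population level, 87.1% and 86.98% of cells would have had a UMI at their depths. In sunitinib cells the shares were 53.6% (46.3% to 60.9%) for Cldn5 and 74.5% (67.7% to 80.5%) for Tek, against 78.1% and 80.8%. Among cells of at least 2000 UMIs, the 90th percentile for Cldn5 was 1227 CPM in vehicle and 922 CPM in sunitinib, while the lower quartile was at 0. Cells with a Cldn5 UMI were therefore compared with those without, a split made after the values had been seen, among cells of at least 2000 UMIs (87 and 47 in vehicle, 96 and 64 in sunitinib).

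Of 3821 genes with at least 50 UMIs in each library, 91 in vehicle and 88 in sunitinib were at least 2-fold higher in cells with Cldn5, and 20 were so in both (20 of 91 and 20 of 88). At least 2-fold lower were 33 and 29 genes, 8 of them in both, and 0 genes were past 2-fold in opposite directions. Higher in both were Stmn2, a microtubule regulator (log2 ratios 1.69 and 2.65), T-cadherin (Cdh13, 1.32 and 1.31), Ly6a (1.06 and 2.06) and Ly6c1 (1.20 and 1.41). So were the VEGF receptor gene Flt1 (1.20 and 3.57, the latter on 54 and 2 UMIs, interval 1.65 to 6.66) and the growth factor gene Igf2 (4.17 and 3.05, with 1 and 4 UMIs in cells without Cldn5). Lower in both were the Wnt antagonist Sfrp2 (-2.68 in vehicle, 72 and 127 UMIs in sunitinib), the matrix protein gene Thbs1 (-1.10 and -1.25), Igfbp7 (-1.46 and -1.72), Frzb (-1.33 and -1.54) and Col3a1 (-1.52 and -1.53). The other 9 junction and identity genes differed little, between -0.29 (Tie1, sunitinib) and 0.42 (Egfl7, vehicle). Cells with Cldn5 were deeper, at medians of 9558 against 7408 UMIs in vehicle and 8952.5 against 6628 in sunitinib, and the part of depth was not tested. Contractile genes took 0.0803% against 0.0634% and 0.143% against 0.251% of UMIs, so they moved in opposite directions in the 2 libraries.

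**Figure D4:**
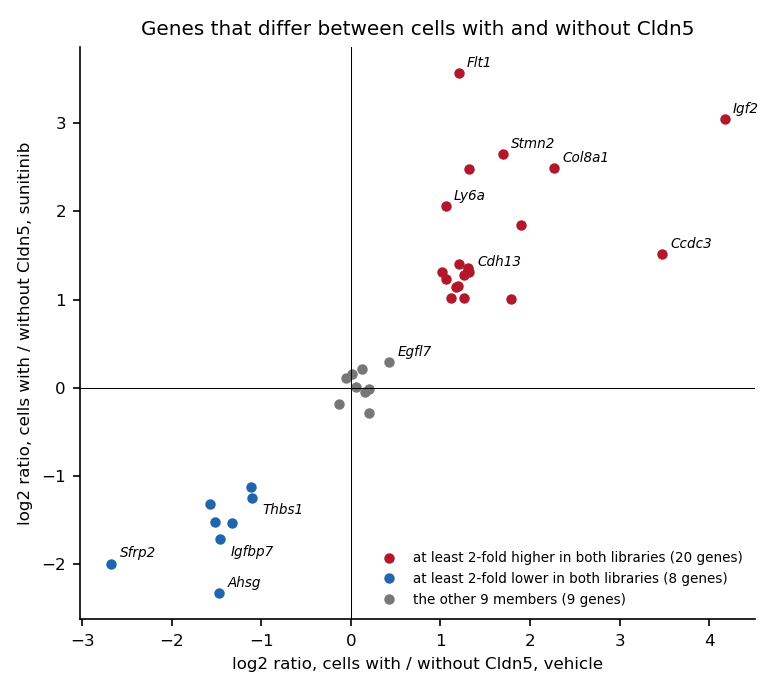
Log2 ratio of CPM in endothelial cells with over cells without a Cldn5 UMI, in vehicle (horizontal) and sunitinib (vertical); red and blue points are the 20 genes at least 2-fold higher and the 8 at least 2-fold lower in both libraries, chosen by these values, and grey points are the other 9 members. The members lie near the origin, Igf2 and Ccdc3 lie farthest to the right, and Sfrp2 farthest to the left.

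Genes that act with the 10 were read from 7 lists, in which genes at 0 in a population were set to 3 counts over that population so that their ratios are bounds. Under sunitinib the counts of each list stand beside 13.0% of all genes called higher and 5.58% called lower. Of 20 measured junction partners 2 were called higher, Mcam (0.94, interval 0.58 to 1.32) and Jam3 (0.86, interval -0.52 to 2.40, on 15 and 7 UMIs), and 0 lower, with Gja5 (-0.58) and Jam2 (-0.51) at the low end. Of 14 genes of Weibel-Palade bodies and haemostasis 3 were called higher, the coagulation inhibitor Tfpi (1.17, interval 0.46 to 1.93), Edn1 (0.87, interval 0.77 to 0.98) and Angpt2 (1.13, interval -0.20 to 2.63, on 18 and 7 UMIs), and 2 lower, Plat (-0.76, interval -1.14 to -0.38) and F8 (-0.93, interval -2.05 to 0.14). Of 7 genes of the angiopoietin pathway, Angpt2 was called higher and Tnip2 lower (-0.70, interval -1.52 to 0.11). Of 19 endothelial transcription factors, Ets1 was called lower (-1.38, interval -2.08 to -0.72), with Klf2, a gene induced by flow, next at -0.51 (-0.59 to -0.44), and Foxc1 (0.41) and Erg (0.40) at the high end.

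Of 22 other pan-endothelial genes under sunitinib, Emcn (0.94, interval 0.69 to 1.20) and Ctla2a (0.87, interval 0.68 to 1.06) were called higher and Flt1 (-1.19, interval -1.67 to -0.72) and Adgrl4 (-0.69, interval -1.33 to -0.058) lower. Of 20 large-vessel genes, Edn1 was called higher and Dkk2 lower (-1.60, interval -3.10 to -0.27, on 7 and 18 UMIs), with Fbln5 (0.40) and Gja5 next to them. Of 8 capillary genes 3 were called lower and 0 higher: Fabp4 (-1.88), Rgcc (-3.11, interval -5.49 to -1.38) and Gpihbp1, which was at least 7.85-fold lower. All 20 Gpihbp1 UMIs of the vehicle population came from 1 cell, so that this list rests on few cells. Aqp1 (0.086) and Timp4 (0.25) were at its high end. The medians of the 7 lists lay between -0.21 and 0.063, against 0.12 for all genes.

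With both compounds against sunitinib, where 37.6% of all genes were called higher and 19.5% lower, large-vessel and capillary genes stood on opposite sides. Of 22 large-vessel genes 15 were called lower and 4 higher (median -2.29), with Bmp4 (-4.17, interval -4.40 to -3.94) and Gkn3 (-3.91, interval -4.23 to -3.60) lowest, and Hey1 (2.29) and Alox12 (at least 12.1-fold) highest. All 17 measured capillary genes were called higher, from Sgk1 (0.74, interval 0.59 to 0.90) and Plvap (1.17, interval 0.94 to 1.40) to Gpihbp1 (at least 582-fold) and Cd36 (at least 1549.9-fold). Both lists were chosen with earlier results of these data known, and the capillary list holds Cd36 and Gpihbp1. The counts of these lists therefore describe the cells of the libraries and test nothing. Of 14 genes of Weibel-Palade bodies and haemostasis 8 were called lower, and 3 higher. Edn1 (-3.82, interval -4.02 to -3.63) and the protein C receptor gene Procr (-2.75, interval -3.05 to -2.46) were lowest, and the coagulation factor gene F8 (3.07, interval 2.25 to 4.01) and Angpt2 (1.94, interval 1.20 to 2.75) highest. Vwf, at -1.84, lay on the side of the larger number.

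Junction partners of these cells were called higher in 11 and lower in 6 of 22 cases, and transcription factors in 9 and 5 of 21, beside 37.6% and 19.5% of all genes. The gap junction genes divided: Gja1 was higher (6.49, interval 4.63 to 9.55, with 2 UMIs in sunitinib) and Gja4 lower (-3.36, interval -3.73 to -3.01). Jam3 (3.26, interval 2.51 to 4.13) stood beside Gja1 at the high end, and the tight junction gene Cgnl1 (-2.43, interval -2.61 to -2.24) beside Gja4 at the low end. Of the transcription factors, the venous regulator Nr2f2 (8.19, interval 5.70 to 13.49, on 1 UMI in sunitinib) and Ets1 (4.58, interval 4.04 to 5.18) were highest, and the arterial regulator Hey2 (-3.27, interval -3.88 to -2.70) and Foxc1 (-2.54, interval -2.91 to -2.17) lowest. Of 24 other pan-endothelial genes 14 were called higher and 5 lower, from Clec14a (-1.44) and Icam2 (-1.35) to Robo4 (6.88, with 2 UMIs in sunitinib) and the VEGF receptor gene Kdr (7.55, interval 6.51 to 8.87). In the angiopoietin pathway 3 of 7 were called higher, among them Angpt2 and Foxo1 (0.85, interval 0.56 to 1.14), and Ptprb was the 1 called lower, with Tek next to it.

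Within the library with both compounds large-vessel genes were mostly lower and capillary genes higher in positive cells. The capillary list holds the 2 genes that made the split, and both lists were chosen with earlier results of these data known. Over all genes 23.6% were called higher and 17.0% lower. Large-vessel genes were called lower in positive cells in 17 of 21 cases and higher in 1, with Gkn3 (-6.76, interval -8.67 to -5.35, on 4 UMIs in positive cells) and Mgp (-4.58, interval -4.70 to -4.47) lowest and Ehd3 (0.23) and Hey1 (2.62, on 2 UMIs in negative cells) highest. Capillary genes were called higher in 17 of 17, the smallest ratios being those of Plvap (0.96) and Sgk1 (1.79). Of haemostasis genes 8 of 14 were called lower, with P-selectin (Selp, -3.12, interval -3.79 to -2.47) and Edn1 (-2.47, interval -2.86 to -2.09) lowest, and 3 higher, with F8 (2.60, interval 1.35 to 4.25) and Angpt2 (1.40, interval 0.30 to 2.75) highest. Of 20 junction partners 9 were called higher and 4 lower, from Gja5 (-4.37, interval -5.15 to -3.66) and Cgnl1 (-3.66, interval -4.04 to -3.29) to Jup (1.54, interval 1.01 to 2.11) and Jam3 (1.70, interval 0.86 to 2.68). Gja5 encodes a connexin of arterial endothelium, and Jup and Jam3 encode proteins of adherens and tight junctions.

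Of 21 transcription factors 7 were called higher and 5 lower in positive cells, beside 23.6% and 17.0% of all genes, with Hey2 (-4.93, interval -6.91 to -3.39) and Foxc1 (-2.89, interval -3.59 to -2.20) lowest and Ets2 (3.02, interval 2.31 to 3.83) and Hey1 highest. Of 24 other pan-endothelial genes 13 were called higher, with Kdr (3.68, interval 3.16 to 4.27) and Robo4 (2.72, interval 1.82 to 3.79) at the top, and 4 lower, with Clec14a (-1.51, interval -1.84 to -1.17) and Cd34 (-0.80, interval -1.07 to -0.53) at the bottom. In the angiopoietin pathway, the ligand gene Angpt2 was called higher (1.40), Ptprb and Angpt1 (-1.44, interval -2.63 to -0.16, on 18 and 10 UMIs) lower, and Tie1 within 1.5-fold.

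Among cells not taken as endothelial, UMIs of Pecam1, Esam, Tek and Cytl1 were found in part of the cells. Pecam1 had a UMI in 63.9% (60.95% to 66.8%) of 1075 cells with B cell markers and 58.7% (55.01% to 62.4%) of 710 with T cell markers in the library with both compounds, at 259 and 155 CPM. Cdh5 was found in 0.930% and 0.141% of those cells, so that Pecam1 and Cdh5 differed there by far more than counting error. Esam had a UMI in 18.2% (16.96% to 19.5%) of 3734 vehicle, 19.5% (18.3% to 20.8%) of 3904 sunitinib and 35.8% (25.4% to 47.2%) of 81 contractile cells with both compounds, at 14.2, 16.8 and 38.8 CPM. Cdh5, in the same contractile cells, was found in 0.777%, 0.717% and 0 of 81. Tek had a UMI in 22.7% (16.6% to 29.7%) of 172 cells with fibroblast markers, at 41.7 CPM (33.5 to 51.3), where Tie1 had 0 UMIs and Ptprb was at 3.74 CPM. Cytl1 was found in 3.75% and 4.64% of contractile cells of the vehicle and sunitinib libraries, at 22.1 and 20.5 CPM, and in 0 of 81 with both compounds. Its level in vehicle endothelial cells was 6504 CPM. Cdh5 (1.78 against 592 CPM) and Vwf (3.25 against 909.7 CPM) were likewise far lower in vehicle contractile than in endothelial cells. The contractile cells include the 51 and 56 with at least 3 of the 10 genes, whereas the marker-defined cells leave such cells out. Carry-over of endothelial transcripts and doublets were not tested. Cd36, which made the split of the endothelial cells, was also found in 42.4% of 125 cells with macrophage markers and Gpihbp1 in 1.60%.

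**Figure D5:**
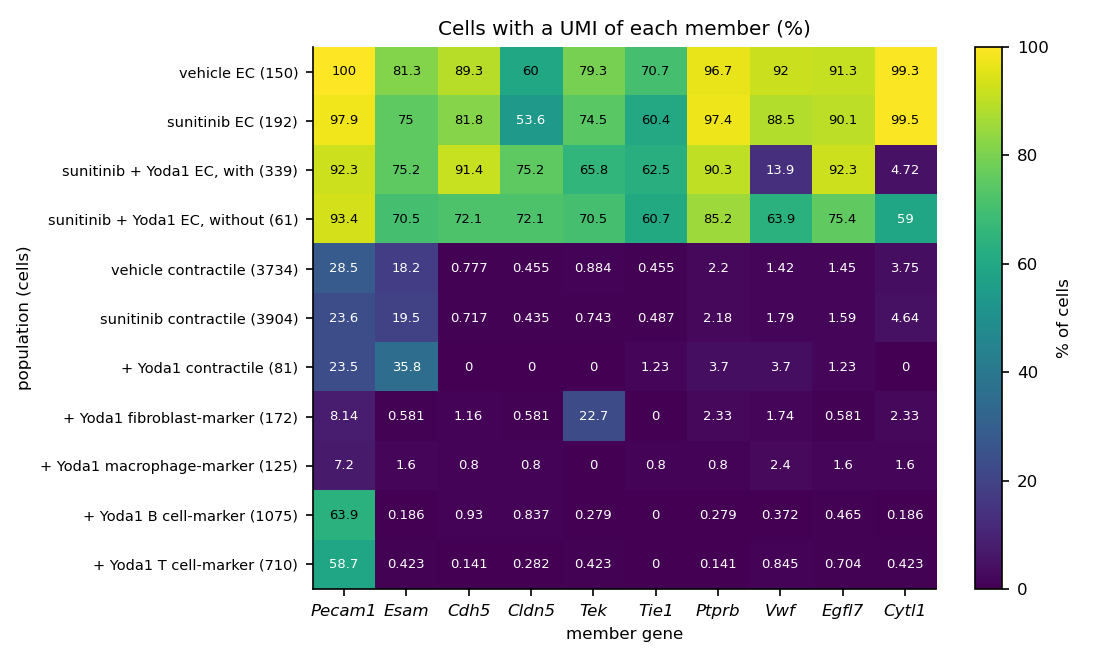
Percent of cells with at least 1 UMI (number and colour) of each of the 10 genes (columns) in 4 endothelial populations (EC, endothelial cells; with and without, Cd36/Gpihbp1-positive and -negative) and 7 populations of other cells (rows, with their number of cells), at full depth. The upper 4 rows are high for most genes except Vwf and Cytl1 in positive cells, and below them Pecam1 in B and T cell-marker cells, Esam and Pecam1 in contractile cells and Tek in fibroblast-marker cells stand out.

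The genes whose pattern was most like the mean of the 10 were found by the Pearson correlation of log2(CPM + 1) over 8 populations (4 endothelial, 3 contractile and 1 of lymphocyte-marker cells) among 11905 genes. The first 5 were Ecscr (r = 0.998), Nos3 (0.997), Myct1 (0.997), Sox18 (0.997) and Clec14a (0.996). The 8 points share libraries and depths, and 4 of them are endothelial, so that endothelial genes in general can score high. Nos3, endothelial nitric oxide synthase, was at 371 CPM in vehicle, 307 CPM in sunitinib, 338 CPM in negative and 109.7 CPM in positive cells. Ecscr was at 488, 388, 406 and 277 CPM in the same order.

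Cdh5 lies across Gm29682 on the opposite strand, Egfl7 across Gm20532 and Mir126a on the same strand and Agpat2 and Mir126b on the opposite strand, and Ptprb across Gm26495 and Gm47625. How the authors' counting treated shared reads was not stated, so the values of Cdh5, Egfl7 and Ptprb carry that uncertainty.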

How the data were processed

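Per the file headers, the authors' matrices came from Cell Ranger 6.0.0 (vehicle, sunitinib) and 7.1.0 (sunitinib plus Yoda1). The deposited values are raw UMI counts, 1 row per gene and barcode. Per the submitters' processing notes, genome build mm10, Cell Ranger and Seurat were used. The annotation, intron setting and any doublet removal are not given in the sources used here. Here counts were summed over endothelial cells and given as CPM with exact Poisson intervals. Log2 ratios carry exact conditional binomial intervals, shares are exact (Clopper-Pearson), and shares at 2000 UMIs are expected values. A count of 0 was set to 3 counts. No doublet caller was run: the contractile limit and alternatives leaving out leukocyte, platelet or lymphatic marker cells stood in for it. A cell had B cell, T cell or macrophage markers with 2 of the list, and fibroblast markers with 3. The genes and lists were chosen with earlier results of these data known. Named were the 10 genes, the 2 highest and 2 lowest of each list per comparison and the 5 genes most like the 10. Other names, such as Klf2, Fabp4 and the genes of the Cldn5 split, were added after their values were seen. Scripts were tested on simulated counts. Python 3.11.15, NumPy 2.4.6, SciPy 1.17.1, pandas 2.3.3, R 4.3.3 and edgeR 4.0.16 (TMM factors only) were used.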

Additional observations from a re-analysis of the deposited data

How the results depend on the processing

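The median log2 ratio of the 10 genes was recomputed under 18, 18 and 21 alternatives for sunitinib over vehicle, both compounds over sunitinib, and Cd36/Gpihbp1-positive over -negative cells. Each was set against a range made by averaging the counting intervals of the 2 middle genes, which is no interval of the median itself. The median left this range under 3, 6 and 4. For sunitinib over vehicle it was 0.054 with no limit on contractile genes, and -0.16 with TMM and with median-of-ratios factors. For both compounds over sunitinib it was -0.37 with 2 detected genes, -0.33 with cells chosen by other endothelial genes, 0.42 with no limit on contractile genes, -0.32 with TMM factors, -0.36 with median-of-ratios factors and -0.012 without cells bearing leukocyte or haemoglobin transcripts. For positive over negative cells it was 0.78 with 2 detected genes, 0.66 with cells chosen by other endothelial genes, 0.085 when split by Fabp4 or Rgcc, and -0.45 against Cytl1-positive negative cells alone. The cause of these shifts was not tested. When each gene was measured in cells with 3 of the other 9 genes, the medians were -0.060, -0.16 and -0.23. Of the single genes, 138 of 160, 87 of 160 and 139 of 190 values moved by less than counting error. Called values reversed for Ptprb in positive over negative cells, at 0.43 (2 detected genes) and 0.29 (other endothelial genes). TMM moved all ratios by -0.10, -0.16 and 0.047 in the 3 comparisons. Leaving out lymphatic or platelet marker cells, taking out haemoglobin UMIs and keeping Cytl1-positive negative cells alone were added after seeing the data. No paired analysis was possible because each group has 1 library and the result comes from no test, and no replicate could be left out. Counts are small in the 61 negative cells, in which Tie1 had 85 UMIs, and in the 36 with Cytl1, in which it had 64.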
